A study of Homo sapiens with 16 samples.

Results

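The genes followed here across ECC-1 and T-47D cells are 42 that act in mitosis, of the 21453 gene symbols measured. They were taken by name from a list of spindle, kinetochore, checkpoint and mitotic entry genes, chosen with earlier results of these data known. Each is represented by the RefSeq transcript with the highest mean level. All 42 passed the filter on low values (at least 1 RPKM in at least 2 libraries) and are among the 13827 genes tested. ECC-1 is an endometrial cancer line and T-47D a breast cancer line. Both lines were grown for 5 days without phenol red in medium whose serum (10%) had been stripped with charcoal, which lowers its hormones, in dishes of 100 mm. Cells then received one of 4 additions for 8 h. The vehicle group received 0.02% DMSO, the estradiol group 10 nM 17β-estradiol, the BPA group 100 nM bisphenol A, a plastics monomer, and the genistein group 100 nM genistein, a soy isoflavone. Each of the 8 combinations of line and addition has 2 libraries of polyadenylated RNA, 16 in all. Nothing in the labels shows that replicates came from separate cultures, and the spread behind each p-value may thus be technical.

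Mitosis begins when CDK1 bound to cyclin B phosphorylates its targets. Kinetochores then attach chromosomes to spindle microtubules, and a checkpoint holds back the anaphase-promoting complex until every chromosome is attached. Most of the transcripts behind these steps are low in G1 and peak in G2 and M, through a shared promoter element, the cell cycle genes homology region (CHR), which binds the DREAM and MuvB complexes, often near CCAAT boxes bound by NF-Y. In estrogen receptor-positive cells estradiol is known as a mitogen that moves cells from G1 into S phase, with mitotic transcripts following once cells reach G2.

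Most promoters of the family show these elements. The 6 printed all hold both, and their genes range in the line difference described below from large (CCNB2) to undetected (INCENP). None of the 10 promoters with no CHR match, among them those of SPC24 and CCNB1, is printed. Of the 42 genes, 35 matched the RefSeq promoter table, which covers 250 bases before to 50 bases after each start on GRCh38.p14. Each sequence is the 120 bases before the start on the strand of the gene, and capitals mark matches, on either strand, to the CHR core (TTTGAA or TTCGAA) and to CCAAT. The files themselves were made on hg19, and no position was carried between builds. The CCNB2 stretch is chr15:59105026-59105145 (plus strand), PLK1 is chr16:23678769-23678888 (plus), CDCA8 is chr1:37692396-37692515 (plus), PRC1 is chr15:90994536-90994655 (minus), ESPL1 is chr12:53268179-53268298 (plus) and INCENP is chr11:62123891-62124010 (plus).
CCNB2: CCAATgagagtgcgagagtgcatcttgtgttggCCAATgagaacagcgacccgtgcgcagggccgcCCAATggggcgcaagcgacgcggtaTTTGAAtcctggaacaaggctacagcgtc
PLK1: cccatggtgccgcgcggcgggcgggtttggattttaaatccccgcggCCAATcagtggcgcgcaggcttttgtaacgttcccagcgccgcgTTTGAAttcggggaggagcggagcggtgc
CDCA8: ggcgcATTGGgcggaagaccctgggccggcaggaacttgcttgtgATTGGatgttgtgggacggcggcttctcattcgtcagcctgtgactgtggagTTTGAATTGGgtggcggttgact
PRC1: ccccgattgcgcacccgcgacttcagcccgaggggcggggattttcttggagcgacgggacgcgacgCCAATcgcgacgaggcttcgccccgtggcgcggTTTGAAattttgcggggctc
ESPL1: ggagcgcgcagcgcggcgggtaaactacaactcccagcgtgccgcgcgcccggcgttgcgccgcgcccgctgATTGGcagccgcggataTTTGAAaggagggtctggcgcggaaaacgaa
INCENP: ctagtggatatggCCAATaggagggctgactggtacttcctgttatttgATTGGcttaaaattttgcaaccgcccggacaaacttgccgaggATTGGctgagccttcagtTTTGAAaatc
In CDCA8 the CHR and the last CCAAT match overlap.

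Over the whole 300-base window, a CHR core was found in 25 of the 35 promoters (71.4%), in 51.0% of 104 promoters of other mitotic genes and in 16.6% of all 27305 promoters of the table. CCAAT was found in 27 of the 35 (77.1%), against 57.7% and 35.7%. Both stood in 60.0% of the 35 promoters, in 32.7% of those of the other mitotic genes and in 6.58% of all. GGCGG, the core of an E2F-like element, was found in all 35, but also in 58.6% of all promoters. The promoter table was not limited to the genes tested here, so its shares may differ from those of expressed genes. Such a match is a description of letters, not evidence of binding, and gene promoters with no match in this window may carry the element elsewhere.

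The libraries were not given as counts. Depth was estimated from the steps of 1 read between low RPKM values and came to 17.4 to 29.4 M reads. At that depth each of the 41 members with a known length rested on at least 105 estimated reads in every library, the fewest for CDC25C. The line labels matched the markers: 5 Mullerian and endometrial genes (PAX8, EMX2, MSX1, HOXA10, SOX17) summed to 328 to 372 scaled RPKM in the ECC-1 libraries and 0.439 to 0.745 in T-47D. Luminal breast markers (GATA3, FOXA1, SPDEF, TRPS1, PIP) summed to 854 to 1140 in T-47D and 5.31 to 7.44 in ECC-1, where PIP was listed at 0 in all 8 libraries. Fibroblast markers (6 genes) summed to 9.42 to 15.5 in ECC-1 and 16.9 to 31.8 in T-47D, nearly all of it COL1A1, leukocyte markers (6 genes) to at most 7.53, mostly LYZ, and endothelial markers (5 genes) to at most 1.88.

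The first estradiol library of each line stood apart. Its summed RPKM was 636661 in ECC-1 against 714324 to 735012 in the other 7 libraries, and 631354 in T-47D against 553130 to 595094. The SD of the members' log2 difference between replicates was 0.35 in the estradiol group of ECC-1 and 0.35 in that of T-47D, while the remaining 6 groups gave 0.10 to 0.18. The estradiol results are therefore given with and without single libraries where that matters. Levels below are scaled RPKM, that is reads per kilobase and M reads after a library scale factor, with SD over n = 2 libraries. Changes are log2 differences of (scaled RPKM + 0.5) with standard error (SE), fold values are taken on that scale, and a gene is called at a Benjamini-Hochberg adjusted p under 0.05 over all 13827 genes in 1 limma fit.

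The strongest pattern was between the lines. In DMSO, 37 of the 42 genes had the lower level in T-47D, 0 were higher and 5 did not pass. The median difference was -1.39 on the log2 scale, against 0.04 over all genes tested. The lines differ widely: 76.7% of all genes were called, 37.1% lower and 39.6% higher in T-47D. The members thus stood apart from the background mainly in direction, with 0 of 37 calls higher in T-47D. Across all treatments, all 8 T-47D libraries lay under all 8 ECC-1 libraries for 33 of the 42 genes (32.6% of all genes). None lay wholly above and 9 overlapped, counts for which the share over all genes was not computed. In bulk RNA, fewer cells in G2 and M and less of each transcript per cell cannot be told apart, and no measure of cell cycle phase was analysed here.

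**Figure D1:**
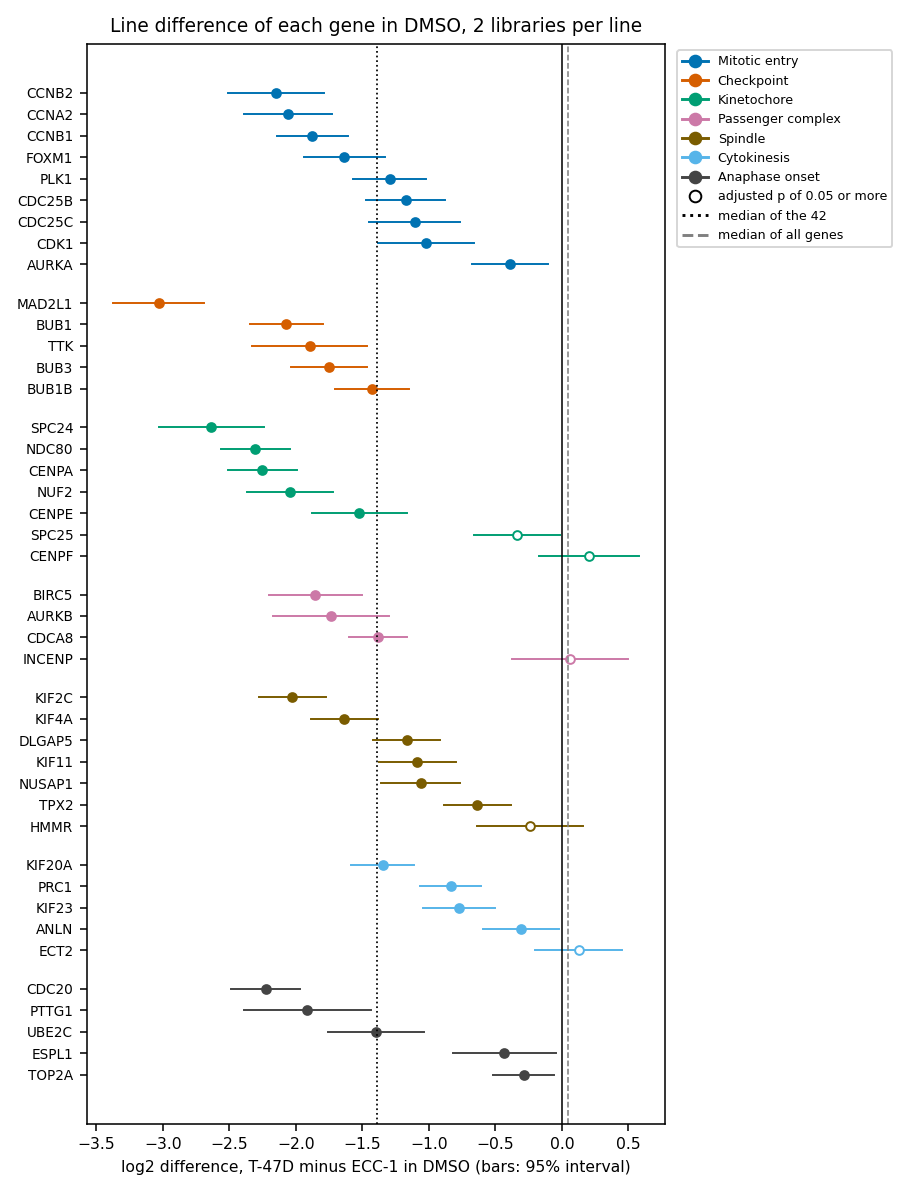
Difference of each of the 42 genes between the lines in DMSO (log2, T-47D minus ECC-1), with the 95% interval of the limma fit and 2 libraries per line, colored by role; open points did not pass. The dotted line is the median of the 42 (-1.39) and the dashed line that of all genes (0.04); the points spread from MAD2L1 at -3.03 to CENPF at 0.20.

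Among the mitotic entry genes all 9 were lower in T-47D, with a median of -1.29. CCNB1, the cyclin B1 that activates CDK1, stood highest of the 42 in ECC-1. Its level was 225 and 222 in the ECC-1 DMSO libraries and 65.1 and 56.1 in T-47D. The lines were far apart in every treatment, with 173.5 to 224.7 over the ECC-1 libraries and 52.1 to 65.1 over those of T-47D, and the DMSO difference was -1.88 (SE 0.12, adjusted p = 2.0e-09). Cyclin B2 (CCNB2) differed by -2.15, from 172 ± 2.77 to 38.5 ± 6.11. CCNA2, the cyclin A2 of S phase and G2, differed by -2.06. CDK1 itself differed less, by -1.02, at 160 ± 17.2 in ECC-1 and 78.1 ± 4.49 in T-47D. FOXM1, a transcription factor for this program, differed by -1.64, and PLK1, the Polo-like kinase of mitotic entry, by -1.29. The phosphatases that activate CDK1 differed by -1.17 (CDC25B) and -1.11 (CDC25C). AURKA, the centrosomal Aurora kinase, had the smallest difference of this group, -0.39 (adjusted p = 0.015). Its lines overlapped only through the first estradiol library of ECC-1, which stood apart (42.1, against at most 43.4 in T-47D).

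The 5 spindle checkpoint genes were all lower in T-47D, with a median of -1.90. MAD2L1 encodes MAD2, which binds CDC20 to hold back anaphase, and had the largest difference of the 42 genes. Its level was 129 and 116 in ECC-1 DMSO and 15.9 and 13.2 in T-47D, an 8.18-fold difference (log2 -3.03, SE 0.16, adjusted p = 1.3e-10). Over all treatments MAD2L1 was 91.9 to 130.0 in ECC-1 and 11.3 to 15.9 in T-47D. BUB3, a kinetochore partner of BUB1 and BUBR1 and the checkpoint gene with the highest mean level, was 174 and 162 in ECC-1 DMSO and 52.9 and 46.2 in T-47D (-1.75, SE 0.14, adjusted p = 1.1e-08). The checkpoint kinases BUB1 and TTK differed by -2.07 and -1.90. BUB1B, which encodes BUBR1, differed by -1.43. No T-47D library reached the lowest ECC-1 library for any of the 5.

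The kinetochore genes split. CENPA, the centromeric histone H3 variant, was 35.4 and 33.4 in ECC-1 DMSO and 6.66 and 6.99 in T-47D (-2.25, SE 0.12, adjusted p = 1.6e-10). Of the 4 subunits of the NDC80 complex, which binds microtubules at the kinetochore, 3 were lower and 1 did not pass. NDC80 was 42.2 and 37.5 in ECC-1 DMSO and 7.90 and 7.42 in T-47D (-2.31, SE 0.12, adjusted p = 1.2e-10). SPC24 was 22.5 and 26.6 in ECC-1 and 3.53 and 3.49 in T-47D (-2.64, SE 0.18, adjusted p = 3.7e-09). NUF2 differed by -2.05, at 38.3 ± 4.22 in ECC-1 and 8.89 ± 0.946 in T-47D. SPC25, whose protein pairs with SPC24, was 65.6 and 53.8 in ECC-1 and 42.1 and 52.2 in T-47D. Its difference was -0.34 (SE 0.15, adjusted p = 0.056), with an interval of -0.66 to -0.01, and the lines overlapped over all treatments (44.6 to 65.6 against 42.1 to 57.8). Among these subunits the ratio between SPC24 and SPC25 therefore differed widely between the lines, though a difference between 2 genes' line effects was not tested. CENPE, a kinetochore motor, differed by -1.53. CENPF, a large kinetochore and nuclear matrix protein, was 25.8 and 23.9 in ECC-1 and 27.0 and 30.4 in T-47D DMSO and did not pass (0.20, interval -0.17 to 0.58). CENPF was called higher in T-47D where the BPA groups (0.41, adjusted p = 0.045) or the genistein groups (0.48, adjusted p = 0.022) of the lines were compared, but not with the estradiol groups (-0.09, adjusted p = 0.66), alternatives chosen after seeing the data. Of all genes, 77.4%, 77.4% and 75% were called in those 3 comparisons.

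The chromosomal passenger complex, which corrects faulty attachments and then moves to the midzone, showed a like split. AURKB, its kinase, was lower in T-47D by 1.73 on the log2 scale (adjusted p = 1.5e-06), at 47.9 ± 0.348 in ECC-1 and 14.1 ± 2.31 in T-47D. BIRC5 (survivin) was 79.4 and 75.5 in ECC-1 and 22.7 and 19.5 in T-47D (-1.86, SE 0.16, adjusted p = 5.2e-08). CDCA8 (borealin) differed by -1.38. INCENP, the scaffold that binds the other 3, was 14.02 and 15.45 in ECC-1 and 15.1 and 15.6 in T-47D. Its difference was 0.06 with an interval of -0.38 to 0.50, while the intervals of its 3 partners ended at -1.165 or lower.

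Of the 7 spindle motors and microtubule-associated proteins 6 were lower, with a median of -1.09. NUSAP1, a microtubule-bundling protein and the one with the highest mean, was 109 and 96.6 in ECC-1 DMSO and 51.8 and 46.3 in T-47D (-1.06, SE 0.14, adjusted p = 5.0e-06). KIF2C, a motor that takes microtubules apart, differed most, by -2.03, and the chromokinesin KIF4A by -1.64. KIF11 (Eg5), which separates the poles, differed by -1.09 and DLGAP5 (HURP) by -1.17. TPX2, the activator of Aurora A, differed by -0.64. HMMR, a spindle protein and hyaluronan receptor, was 25.8 and 22.5 in ECC-1 and 21.2 and 19.6 in T-47D and did not pass (-0.24, interval -0.64 to 0.16).

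The cytokinesis genes differed least, with a median of -0.77 and 4 of 5 lower. KIF20A differed by -1.35, PRC1, which bundles midzone microtubules, by -0.84, and the motor KIF23 by -0.77. ANLN (anillin) differed by -0.31 with an adjusted p of 0.049, just under the threshold. ECT2, the exchange factor that activates RhoA at the cell equator and the member of this group with the highest mean, was 78.8 and 75.9 in ECC-1 and 89.9 and 79.2 in T-47D. Its difference was 0.12 (SE 0.15, adjusted p = 0.47).

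All 5 genes of anaphase onset and chromosome separation were lower in T-47D, with a median of -1.40. CDC20, the activator of the anaphase-promoting complex, was 157 and 167 in ECC-1 DMSO and 37.5 and 31.2 in T-47D, a 4.68-fold difference (-2.23, SE 0.12, adjusted p = 1.7e-10). UBE2C, the ubiquitin-conjugating enzyme of that complex, differed by -1.40. PTTG1 (securin) differed by -1.91, and separase (ESPL1), which securin inhibits, by only -0.43 (adjusted p = 0.040). TOP2A, the topoisomerase that untangles sister chromatids, differed by -0.29, at 102 ± 6.77 and 83.5 ± 5.82. PTTG1 and KIF4A have near-identical copies that may share reads. PTTG2 had means of 23.2 (ECC-1) and 6.72 (T-47D) beside 132 and 38.5 for PTTG1, and KIF4B 11.1 and 3.54 beside 26.8 and 8.35 for KIF4A, so the split within each pair is uncertain.

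**Figure D2:**
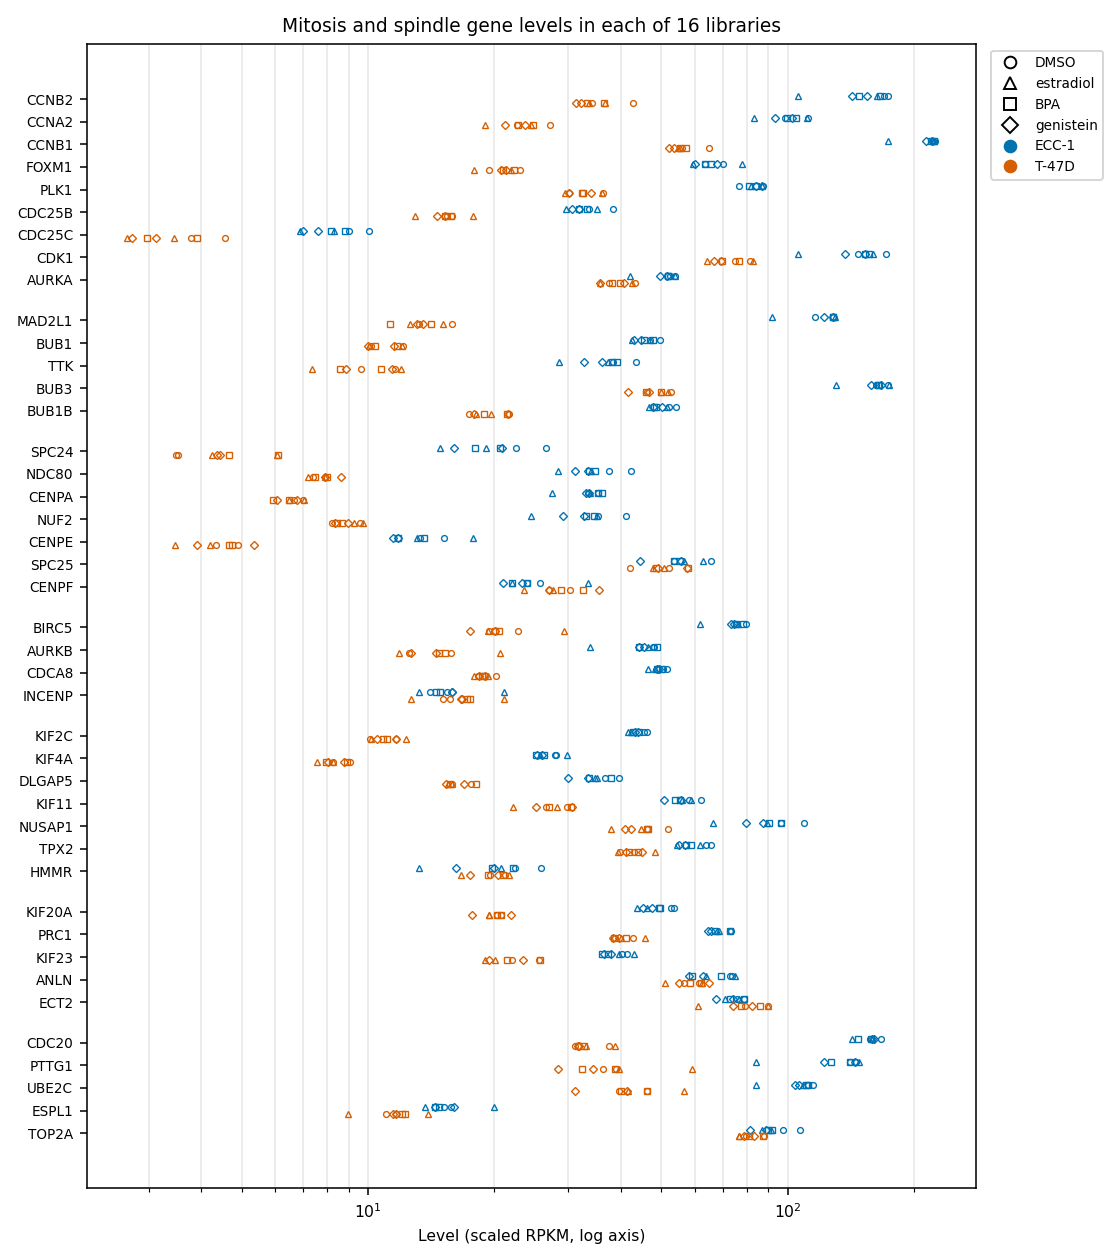
Level of each of the 42 genes in all 16 libraries (scaled RPKM, log axis), blue for ECC-1 and orange for T-47D, with the marker shape giving the treatment. For 33 genes the orange points lie wholly left of the blue; AURKA, CENPF, SPC25, INCENP, HMMR, ANLN, ECT2, ESPL1 and TOP2A overlap.

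Most of these calls held under other processing. Of the 37, 33 were called lower in all 18 alternatives tried, of which the 4 in the other treatments were chosen after seeing the data, and the count of calls ranged from 33 to 38. The exceptions were AURKA (called in 15 of 18), ESPL1 (11), TOP2A (11) and ANLN (6), the 4 with the smallest differences. The promoters gave no simple ordering. The median difference was -1.09 for the 25 genes with a CHR match (from -3.03 to 0.20) and -1.81 for the 10 without (from -2.64 to -1.11), so the ranges overlapped. INCENP (0.06) and CCNB2 (-2.15) both hold a CHR match and 3 or more CCAAT matches.

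Related genes outside the 42 differed in the same direction, less uniformly. Of 126 other mitotic genes 93 were lower and 14 higher in T-47D, with a median of -0.93. The largest differences were in C6orf173, an older symbol of the centromere protein gene CENPW (39.4 ± 3.19 in ECC-1 and 4.33 ± 0.435 in T-47D, -3.05), CDCA3 (-2.78) and FAM64A, now PIMREG (-2.69). The anaphase-promoting complex and its regulators did not share the direction: 5 were lower, 4 higher and 6 not called of 15, with a median of -0.05. Single genes of that list ranged from -2.495 (UBE2S) to 1.592 (FZR1). Of 26 genes of G1/S and DNA replication 21 were lower and 0 higher (median -1.16). Among those CCNE1, cyclin E1, was 27.9 and 28.4 in ECC-1 and 4.59 and 3.54 in T-47D (-2.66, adjusted p = 1.2e-10). Lower transcript levels in T-47D were thus not restricted to mitosis.

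Treatment for 8 h called none of the 42 genes in either line. The limma count was 0 of 42 for estradiol, BPA and genistein in ECC-1, where 1.89%, 0.195% and 0.969% of all genes were called, and 0 of 42 for each in T-47D, where 3.22%, 0% and 0.803% were called. With so few genes called, a count of 0 among 42 lies near the background. At an unadjusted p under 0.05, 7, 0 and 7 members stood out in ECC-1 (15.4%, 2.51% and 7.67% of all genes) and 3, 1 and 1 in T-47D (14.8%, 0.839% and 5.79%). The lowest adjusted p of any member was 0.179, for NUSAP1 with estradiol in ECC-1. The 95% intervals rest on a spread pooled over all 8 groups. In all 6 comparisons all 42 intervals lay within a 2-fold change. Within 1.5-fold lay 29 (estradiol), 40 (BPA) and 35 (genistein) in ECC-1 and 36, 39 and 37 in T-47D. Replicates of the estradiol groups differed more than those of the other groups. The estradiol intervals are thus likely too narrow to bound what was missed. The same pooling brings the estradiol spread into the BPA and genistein intervals, which are likely wider than their own replicates would give. The BPA and genistein counts of 0 may be conservative for that reason. If the replicates are technical, no interval covers the spread between cultures, and all may be too narrow. Estrogen-responsive genes gave a comparison within the same libraries. The 8 genes were GREB1, PGR, PDZK1, MYC, CCND1, IGFBP4, TFF1 and CXCL12. Of these, 4 rose with estradiol and 3 with genistein in ECC-1, and 7 rose with each in T-47D. With BPA 0 passed in either line (1 and 4 at an unadjusted p under 0.05). This list too was chosen with earlier results of these data known, so its counts are not an independent control.

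**Figure D3:**
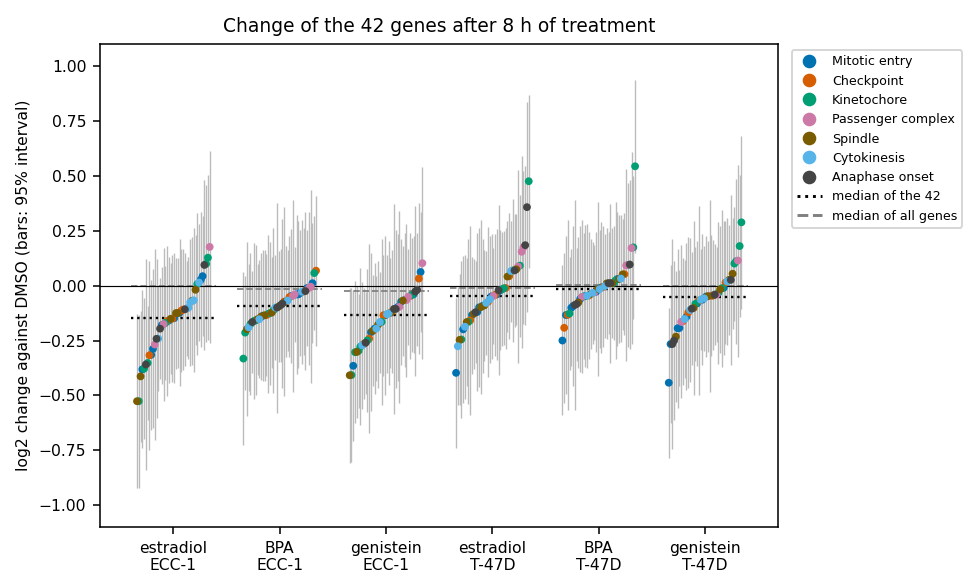
Log2 change of each of the 42 genes against DMSO of the same line after 8 h, sorted within each comparison, with 95% intervals from the limma fit (2 libraries per group); dotted lines are the medians of the 42 and dashed lines those of all genes. No gene passed; the ECC-1 medians are -0.15, -0.09 and -0.13 and those of T-47D -0.05, -0.02 and -0.05.

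In ECC-1 the treated values were on the whole slightly under those of DMSO. The median change was -0.15 with estradiol, -0.09 with BPA and -0.13 with genistein, against 0, -0.02 and -0.03 over all genes. Of the 42 estimates, 34, 39 and 39 were below 0 and 8, 3 and 3 above. Over all genes, 49.5%, 43.8% and 42.8% of the estimates were above 0. The 3 comparisons share the same 2 DMSO libraries, so they are not independent of each other. Averaged over the 42 genes, the log2 level was 5.83 and 5.79 in DMSO, 5.59 and 5.71 in estradiol, 5.72 and 5.72 in BPA and 5.62 and 5.70 in genistein. Both DMSO libraries lay above all 6 treated ones, while the mean over all tested genes stayed between 3.30 and 3.34. Both treated libraries lay under both DMSO libraries for 19 members with estradiol (21.8% of all genes), 23 with BPA (19.7%) and 30 with genistein (29.2%). The medians of the 42 stayed below 0 in every alternative, between -0.18 and -0.09 for estradiol, -0.12 and -0.07 for BPA and -0.17 and -0.10 for genistein. The shift was not particular to the 42. In ECC-1 the 126 other mitotic genes had medians of -0.06, -0.07 and -0.11, with 81, 99 and 101 estimates below 0. Their mean log2 level was also higher in both DMSO libraries (4.795 and 4.742) than in the treated ones (4.644 to 4.729).

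The 3 members with the largest estradiol change in ECC-1 did not pass. HMMR was 25.8 and 22.5 in DMSO and 13.2 and 20.7 with estradiol, the first estradiol library well under the rest (-0.53, SE 0.19, adjusted p = 0.20). SPC24 was 22.5 and 26.6 in DMSO and 14.8 and 19.1 with estradiol (-0.53, SE 0.18, adjusted p = 0.20). NUSAP1 was 109 and 96.6 in DMSO and 66.5 and 89.2 with estradiol (-0.41, SE 0.14, adjusted p = 0.18). For all 3 both estradiol libraries lay under both DMSO libraries, and the first was the lower. Without the second estradiol library, that is with the one that stood apart as the only one, 9 members were called lower: CDK1, CCNB1, CCNB2, NDC80, NUF2, SPC24, NUSAP1, HMMR and PTTG1. In that fit 15.6% of all genes were called, so 9 of 42 lies not far above its background. Without the first library the count was 0, and 0.817% of all genes were called. CCNB2 shows the gap, at 174 and 170 in DMSO, 106 in the first estradiol library and 164 in the second.

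HMMR and SPC24 were also among the 3 members with the largest estimates for BPA and for genistein in ECC-1, measured against the same controls. With BPA, SPC24 was 18.0 and 20.7 (-0.33, SE 0.18), NDC80 was 33.7 and 34.8 against 42.2 and 37.5 in DMSO (-0.21) and HMMR was 19.8 and 22.2 (-0.20), with adjusted p-values of 1. With genistein, HMMR was 16.2 and 20.0 (-0.41, SE 0.19, adjusted p = 0.61) and SPC24 16.1 and 20.9 (-0.41, SE 0.18, adjusted p = 0.61). CDC25C was 6.998 and 7.591 with genistein against 10.1 and 9.03 in DMSO (-0.37, SE 0.16, adjusted p = 0.58). By role, the genistein medians in ECC-1 were -0.28 for kinetochore genes (7 of 7 below 0), -0.21 for spindle genes (7 of 7) and -0.17 for cytokinesis genes (5 of 5). They were -0.12 for checkpoint genes (4 of 5), -0.11 for anaphase genes (5 of 5), -0.10 for entry genes (8 of 9) and -0.06 for the passenger complex (3 of 4). Over all genes, 42.8% of the estimates in that comparison were above 0. With array weights, which give less weight to libraries that stand apart, NDC80, NUSAP1, HMMR and TOP2A were called lower with genistein (adjusted p from 0.038 to 0.047), and 6.08% of all genes were called.

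In T-47D the medians were nearer 0, at -0.05 with estradiol, -0.02 with BPA and -0.05 with genistein. Of the 42 estimates, 29, 25 and 32 were below 0 and 13, 17 and 10 above. Over all genes, 47.6%, 52.3% and 48.4% of the estimates were above 0. The sign of the medians was not stable, since alternatives gave medians from -0.13 to 0.02, -0.10 to 0.05 and -0.14 to 0.02. The averaged log2 level of the 42 was 4.55 and 4.41 in DMSO and between 4.38 and 4.51 in the 6 treated libraries, so the groups overlapped. The first DMSO library was the higher for 36 of the 42 genes (median difference 0.16). Both treated libraries lay under both DMSO libraries for 9 members with estradiol (16.4% of all genes), 1 with BPA (10.2%) and 7 with genistein (18.5%).

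SPC24 and CDC25C led the T-47D comparisons without passing. SPC24 was 3.53 and 3.49 in DMSO, 6.06 and 4.24 with estradiol (0.47, SE 0.18, adjusted p = 0.23), 6.11 and 4.67 with BPA (0.54, SE 0.18, adjusted p = 1) and 4.36 and 4.44 with genistein (0.29, SE 0.18, adjusted p = 1). All 6 treated T-47D libraries lay above both DMSO libraries for SPC24, where in ECC-1 all 6 lay below. CDC25C, a phosphatase that activates CDK1, was 4.56 and 3.79 in DMSO, 3.45 and 2.67 with estradiol (-0.40, SE 0.16, adjusted p = 0.25), 3.92 and 2.97 with BPA (-0.25) and 2.74 and 3.13 with genistein (-0.44, SE 0.16, adjusted p = 0.48). PTTG1 was 39.0 and 36.3 in DMSO and 59.1 and 39.6 with estradiol (0.36, adjusted p = 0.49), the higher value being in the library that stood apart, and 34.4 and 28.3 with genistein (-0.27). MAD2L1 was 15.9 and 13.2 in DMSO and 14.1 and 11.3 with BPA (-0.19, adjusted p = 1). Without the second estradiol library, SPC24, AURKB and BIRC5 were called higher and ECT2 lower with estradiol, a smaller share of the 42 than the 22.6% of all genes called in that fit. Without the first library the count was 0, and 2.02% of all genes were called. AURKB was 15.8 and 12.5 in DMSO and 20.7 and 11.9 with estradiol, so its 2 estradiol libraries fell on either side of the controls.

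The difference between the lines in their response was tested as an interaction, T-47D change minus ECC-1 change. No member passed for estradiol, BPA or genistein, where 1.73%, 0.0434% and 0.586% of all genes did. At an unadjusted p under 0.05, 3, 1 and 2 members stood out (16.5%, 1.41% and 4.69% of all genes). SPC24, singled out after its values were seen, had the lowest p in all 3: the interaction was 1.00 for estradiol (SE 0.26, adjusted p = 0.074), 0.88 for BPA (SE 0.26, adjusted p = 1) and 0.70 for genistein (SE 0.26, adjusted p = 0.66). These 3 share the DMSO libraries of both lines, in which SPC24 was at its highest in ECC-1 and its lowest in T-47D. The estradiol count changed with single libraries. Without the second ECC-1 estradiol library NUF2, SPC24 and PTTG1 were called (12.4% of all genes), and without the second T-47D one SPC24, AURKB, BIRC5 and PTTG1 (16% of all genes). SPC24 then had an adjusted p of 0.020 and 0.0092.

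BPA and genistein were both given at 100 nM and can be compared directly, while estradiol was at 10 nM. Genistein against BPA called 0 of 42 members in ECC-1 (0.0434% of all genes) and 0 of 42 in T-47D (0.405%), and 0 and 0 had an unadjusted p under 0.05 (1.49% and 4.33% of all genes). The largest estimates in ECC-1 were HMMR (-0.21, interval -0.61 to 0.19), CDC25C (-0.21, interval -0.55 to 0.13) and DLGAP5 (-0.17, interval -0.42 to 0.08), the last at 37.9 and 33.6 with BPA and 30.1 and 33.4 with genistein. In T-47D they were UBE2C (-0.26, interval -0.62 to 0.10), SPC24 (-0.26, interval -0.65 to 0.14) and CDC25C (-0.19, interval -0.53 to 0.15). UBE2C was 46.2 and 40.1 with BPA and 41.4 and 31.1 with genistein, and the groups overlapped. All 6 adjusted p-values were 1. All 42 intervals lay within 2-fold in each line, and 40 (ECC-1) and 39 (T-47D) within 1.5-fold, so the compounds were not shown to act alike below that size.

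Few other cell cycle genes passed by 8 h. Of the 126 other mitotic genes, 2 passed in any treatment comparison with DMSO, both lower with estradiol in ECC-1 (1.59% of the 126, against 1.89% of all genes). HMGB2, a chromatin protein of dividing cells, fell from 215 and 178 to 109 and 139 (-0.66, adjusted p = 0.014). LIN37, a subunit of the DREAM and MuvB complexes, fell from 10.5 and 9.61 to 6.29 and 7.07 (-0.55, adjusted p = 0.033). For each gene the lower estradiol value was that of the first library, which stood apart. A fit without that library is not given for these 2 genes. Of the 26 genes of G1/S and replication, 0 passed with estradiol in T-47D, while 9 had an unadjusted p under 0.05 (14.8% of all genes). Of their estimates, 20 were above 0 (47.6% of all genes), and the median was 0.23. Their mean log2 level was 4.63 in the first estradiol library, which stood apart, and 4.43 in the second, against 4.46 and 4.22 in DMSO, so the groups overlapped. The median of the 42 mitotic genes in the same comparison was -0.05.

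**Figure D4:**
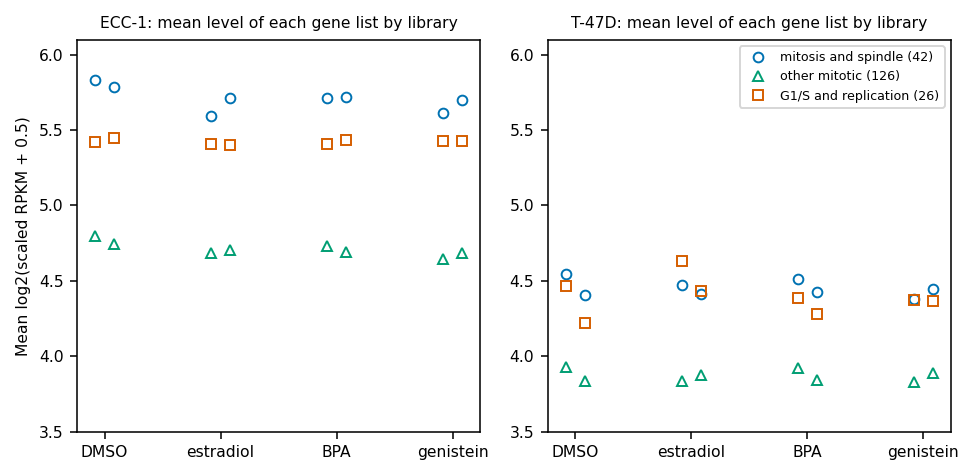
Mean log2(scaled RPKM + 0.5) in each library over the 42 mitosis and spindle genes, 126 other mitotic genes and 26 G1/S and replication genes, by treatment, ECC-1 at left and T-47D at right (axis from 3.5). The 42 genes sit between 5.59 and 5.83 in ECC-1 and between 4.38 and 4.55 in T-47D, and the G1/S genes are highest in T-47D in the first estradiol library (4.63).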

How the data were processed

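Libraries of polyadenylated RNA were made by a transposase method that keeps no strand, per the labels' protocols, so overlapping and antisense genes cannot be told apart. The authors deposited RPKM values for 32062 RefSeq transcripts per library. Reads were aligned with Bowtie to hg19, per the submitters' processing notes, with no versions. Counting and the treatment of multiply mapped reads are not given in the sources used here. Near-identical copies may therefore share reads. For each symbol the transcript with the highest mean was kept. Libraries were divided by a median-ratio scale factor over 7547 genes with at least 5 RPKM everywhere (0.938 to 1.054). Genes with at least 1 RPKM in 2 libraries were analysed as log2(scaled RPKM + 0.5), which understates changes of low genes. Depth was read from the steps between low values with GENCODE lengths; of values worth under 10 reads, 62.3 to 64.5% came within 0.1 read of a whole read (20% by chance), too few to recover counts. One limma fit (3.58.1, R 4.3.3; eBayes with trend, 8 group means, 16 libraries, 8 residual degrees of freedom) gave all contrasts, with Benjamini-Hochberg adjustment within each at 0.05. The fit was also run on simulated data with an equal spread in all groups. That run cannot show how the fit behaves with the wider spread of the estradiol replicates. No 2 libraries were identical.

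Named treatment genes are the 3 members with the largest absolute change where none passed; named line differences are the 5 largest and the member of each role with the highest mean, and the rest are accounted for with their estimates. The members, lists and tests were chosen with earlier results of these data known. Alternatives were scaling, pseudocount, low-value filter, transcript choice, single-line fits, array weights, a replicate block and leaving out libraries.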

Additional observations from a re-analysis of the deposited data

How the results depend on the processing

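Apart from the changes given here, the count of members called kept within 1.5 times its value under each alternative, and the 612 re-estimates of single named members kept their direction and side of the threshold in 598, passed the threshold newly in 13 and changed sign in 1: SPC25 was 0.092 in T-47D against ECC-1 where the genistein groups replaced DMSO (chosen after seeing the data). With array weights genistein in ECC-1 called 4 members. Leaving out 1 library at a time gave 0 to 9 calls for estradiol in ECC-1 (9 without the second estradiol library), 0 to 4 for estradiol in T-47D (4 without the second estradiol library) and 0 to 4 for the line by estradiol interaction (3 without the second ECC-1 estradiol library, 4 without the second T-47D one); with 1 library left in a group, it is assumed to vary like the other groups. For the line difference in DMSO the count stayed between 33 and 38. The labels number the replicates alike in all groups, but not every pair of same-numbered libraries deviated together (correlations from -0.19 to 0.30 in ECC-1 and from -0.22 to 0.41 in T-47D, where 5 of 6 were above 0), so the numbers were not taken as a pairing; with the replicate block 1 member, SPC24, was called in the line by estradiol interaction (1.00, adjusted p = 0.017; 2.25% of all genes), and no other count moved by over 1.5 times. With 2 libraries a group, the median half-width of a member's 95% interval (log2) was 0.30 for treatments and 0.42 for interactions.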
